A study of Mus musculus with 6 samples.

Results

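Gldc and 7 further enzymes of serine and one-carbon metabolism were followed in T cells from a mouse brain tumor. The 8 genes (Gldc, Shmt1, Shmt2, Mthfd1, Mthfd2, Phgdh, Psat1 and Psph) were taken by symbol from the 32285 genes of the deposited count matrices, and each had a single row in both. They were listed with earlier results of these data known: Gldc was chosen by its measured ratio between expanded and single CD8 clones, so its clone values, and those of day and state that go with them, are a description. T cells (CD3+, with CD4+ or CD8+) had been sorted from intracranial tumors of the mouse glioma line CT2A, grown in wild-type C57BL/6J mice aged 6 to 8 weeks. The early group (day 13) came from 16 mice in pools of 4 and the late group (day 19) from 4 mice, with no treatment named for either. Each day was 1 droplet capture by 5′ chemistry, read as gene expression, antibody tag and T cell receptor (TCR) libraries, which gives 6 samples. With 1 capture per day there is no test between the days and no p-value is given. Day, capture, staining and pooling cannot be told apart.

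One-carbon metabolism moves single carbon units on folate carriers. The carbon comes mainly from serine, which serine hydroxymethyltransferase splits into glycine and a folate-bound carbon, and it goes into purines, thymidylate and, through methionine, methyl groups. Serine itself is taken up or made from a glycolytic intermediate in a short pathway, and T cells are known to raise these enzymes when they are activated and divide. Gldc, glycine decarboxylase, is the P protein of the mitochondrial glycine cleavage system, a complex that takes the carbon from glycine instead of serine and is best known from liver and astrocytes.

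The 8 genes lie on 7 chromosomes. In the RefSeq annotation of GRCm38.p6, whose chromosomes are those of the mm10 build in the submitters' notes, Gldc spans chromosome 19 from 30098441 to 30175441 and Psat1 lies on the same chromosome from 15905123 to 15925059. Phgdh spans chromosome 3 from 98313171 to 98339969, and Psph chromosome 5 from 129765558 to 129787443. Shmt1 spans chromosome 11 from 60788897 to 60811265, and Shmt2 chromosome 10 from 127517123 to 127522444. Mthfd1 spans chromosome 12 from 76254406 to 76319820, and Mthfd2 chromosome 6 from 83305704 to 83326011. All 8 were higher in cycling than in non-cycling CD8 cells (below), so the 250 bases before the starts given for them in the RefSeq table were read for 4 motifs on both strands. The motifs were CCAAT (the core bound by NF-Y), TGATGNAA (the composite element bound by ATF4 dimers), CACGTG (the E-box bound by Myc and others) and GGCGGGAA (an E2F site). The table gave 9 windows for the 8 genes, 2 of them for Psat1. Those of Mthfd1, Mthfd2 and Psph and 1 of Psat1 lay partly or wholly inside the gene spans above. Any further starts of these genes were not read. A CCAAT stood in 7 of the 9 windows, all but that of Shmt2 and 1 of Psat1. Of 32851 RefSeq windows of this length 33.8% held one. TGATGNAA and CACGTG were in none of the windows of the 8 genes, against 3.45% and 6.02% of all windows, and GGCGGGAA was in that of Mthfd1 alone, against 1.86%. These are matches of letters and show no binding. The windows of Gldc, Phgdh and Psat1 are shown because Gldc was the gene that set clones apart, and the other 2 are the serine synthesis genes with the larger ratios in cycling cells. They are RefSeq sequence of GRCm38.p6 read 5′ to 3′ on the minus strand, with CCAAT, or ATTGG where it is on the other strand, in capitals.
Gldc, chr19:30175442-30175691: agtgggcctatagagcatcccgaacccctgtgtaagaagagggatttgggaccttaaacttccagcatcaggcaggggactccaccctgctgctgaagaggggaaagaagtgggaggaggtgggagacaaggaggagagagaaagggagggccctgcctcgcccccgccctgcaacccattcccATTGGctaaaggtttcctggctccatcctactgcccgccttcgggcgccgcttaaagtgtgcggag
Phgdh, chr3:98339970-98340219: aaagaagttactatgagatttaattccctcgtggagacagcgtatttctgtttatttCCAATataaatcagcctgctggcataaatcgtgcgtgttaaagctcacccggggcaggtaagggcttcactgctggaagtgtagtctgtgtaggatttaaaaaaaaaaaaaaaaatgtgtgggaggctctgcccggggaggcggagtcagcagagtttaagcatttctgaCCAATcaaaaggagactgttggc
Psat1, chr19:15925060-15925309: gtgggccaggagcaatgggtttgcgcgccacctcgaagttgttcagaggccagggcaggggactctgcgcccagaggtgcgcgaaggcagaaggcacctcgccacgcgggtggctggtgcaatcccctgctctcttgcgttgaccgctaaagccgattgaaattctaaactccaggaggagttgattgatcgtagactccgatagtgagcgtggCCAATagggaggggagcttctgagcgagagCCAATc
The CCAAT of Gldc began 66 bases before the start, those of Psat1 36 and 6 bases before it and those of Phgdh 193 and 23 bases before it.

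Cells were barcodes with a TCR contig, at least 5000 gene UMIs (unique molecular identifiers, 1 for each captured molecule), at most 10% mitochondrial UMIs and at most 3 UMIs of the macrophage genes C1qa, Lyz2 and Csf1r together. This kept 3775 of 8359 contig barcodes at day 13 and 2159 of 4295 at day 19. CD8 T cells had a Cd8a or Cd8b1 UMI and none of Cd4, CD4 T cells the reverse. Day 13 gave 2646 CD8 cells beside 499 CD4 cells, and day 19 gave 1436 beside 377. Median depths of the CD8 cells were 7199 and 9098 UMIs. The TCR contigs of each day came in 4 tables, here called sets, which no label ties to animals or pools. Ranges over the 4 sets describe groups of cells within 1 capture and are not replicate error. No kept barcode was in more than 1 set of a day, and 13 kept barcodes occurred on both days. Levels are UMIs of a gene per 1000000 gene UMIs, summed over the cells of a group (CPM), and differences are log2 ratios of CPM with an exact 95% Poisson interval that covers counting error only. A gene is counted as 2-fold higher or lower where the ratio reached 1 in size, its interval lay off 0 and both sums held 50 UMIs or more together. Levels of different genes are not ranked against each other.

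Marker lists of other cells were summed for CD8 cells. The oligodendrocyte list of 5 genes had 300.3 CPM at day 13 (sets 261 to 344) and 197 at day 19 (155 to 213), with Mog at 0 on both days. The B and plasma cell list of 6 genes had 119.7 CPM (102 to 134) and 79.2 (63.8 to 100.1), with Jchain at 0 at day 13. Summed over 10 genes, the myeloid list had 89.2 CPM in CD8 cells at day 13 (sets 79.0 to 102) and 95.3 at day 19 (58.8 to 159). The astrocyte list of 8 genes, which bears on Gldc, had 3.89 and 7.42 CPM, with Gja1 and Sox9 at 0 at day 13 and Aqp4, Slc1a3, Gja1 and Fabp7 at 0 at day 19. The glioma list of 7 genes had 2.61 and 4.37 CPM. A choroid plexus list of 4 genes had 2.23 and 126 CPM, and its sets at day 19 ran from 0.381 to 422. Gldc outside T cells was read in barcodes of the same depth with no contig, no CD3 gene UMI and over 20 UMIs of the macrophage genes. At day 13, 3 of 532 of them had a Gldc UMI (0.564%, median 8813 UMIs). At day 19 0 of 188 did (median 9378 UMIs), which allows up to 1.6% with a UMI at that depth. These are shares of barcodes with a detected UMI, not of cells that express the gene. Barcodes with at most 100 UMIs, which hold free RNA of all cells, had Gldc at 2.52 and 8.36 CPM.

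Gldc was a rare transcript held by few CD8 cells. At day 13, 56 of 2646 CD8 cells had any Gldc UMI, and 36 of these had 1. At day 19 the counts were 103 of 1436, and 67 with 1. The most in 1 cell was 11 UMIs at day 13 and 6 at day 19. Levels over all CD8 cells were 5.69, 2.38, 0.742 and 14.5 CPM in the 4 sets of day 13 and 8.43, 9.01, 17.8 and 6.08 in those of day 19. The set with 14.5 CPM lay above 3 of the late sets, so the days overlapped. Summed, Gldc had 109 UMIs (4.51 CPM) at day 13 and 162 (10.1 CPM) at day 19, a log2 ratio of 1.16 (0.80 to 1.53). It was the only one of the 8 genes at 2-fold or more, where 2.19% of 10979 genes were 2-fold higher and 2.93% lower. The ratio was 2.23 without day-13 set 4, and it was under 2-fold without day-13 set 3 (0.66), day-13 set 2 (0.82) or day-19 set 3 (0.86). It was also under 2-fold in cells with at least 8000 UMIs (0.58) or with no macrophage gene UMI (0.78). It was 1.88 in cells thinned to 5000 UMIs and 2.55 without the 8% deepest cells. Without the cells that had a UMI of the astrocyte or glioma lists it was 1.23 (0.84 to 1.64).

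Cycling cells, taken as those with a Mki67 UMI (Mki67 is a marker of proliferation), were 14.1% of CD8 cells at day 13 and 23.2% at day 19. In non-cycling CD8 cells Gldc had 3.45, 2.41, 0.480 and 5.36 CPM in the sets of day 13 and 10.5, 7.67, 13.9 and 5.85 in those of day 19. All late sets were above all early ones, the closest values being 5.36 and 5.85. The sums were 42 UMIs (2.36 CPM) and 90 UMIs (8.82 CPM), a log2 ratio of 1.90 (1.36 to 2.47). Among all genes tested, 2.04% were 2-fold higher and 2.65% lower here, and 7.55% had every late set higher. These 2 sums lay near the 2.52 and 8.36 CPM of the barcodes with free RNA. In the same captures non-cycling CD8 cells without Pdcd1 had 0.168 CPM (0.0204 to 0.608) and 1.95 CPM (0.972 to 3.48). These lay below both the free RNA and the sums of their day. The part of free RNA in the Gldc ratio was not tested. Some cell cycle genes were also higher at day 19 among cells without a Mki67 UMI. Of 12 tested genes of that list 8 had intervals above 0, as did 18% of all genes, with a median of 0.45 against -0.06 over all genes. Cdk1, the mitotic kinase, was at 1.13 and Tk1, the thymidine kinase of S phase, at 1.01. Their part in the Gldc ratio was not tested. The Gldc UMIs were unequally spread over states and clones, as the next paragraphs give. In cycling CD8 cells the sets were 10.0, 2.29, 1.64 and 34.5 CPM at day 13 and 6.66, 12.0, 25.3 and 6.37 at day 19. These overlapped, and the sums of 10.5 and 12.3 CPM gave a log2 ratio of 0.23 (-0.27 to 0.73). Of the 67 UMIs of day 13, 50 lay in set 4, and without that set the ratio was 1.84 (1.06 to 2.69), an alternative chosen after seeing the data. One set on each day, day-13 set 4 and day-19 set 3, stood above the others of its day in cycling cells, and each held 1 of the clones described below.

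**Figure D1:**
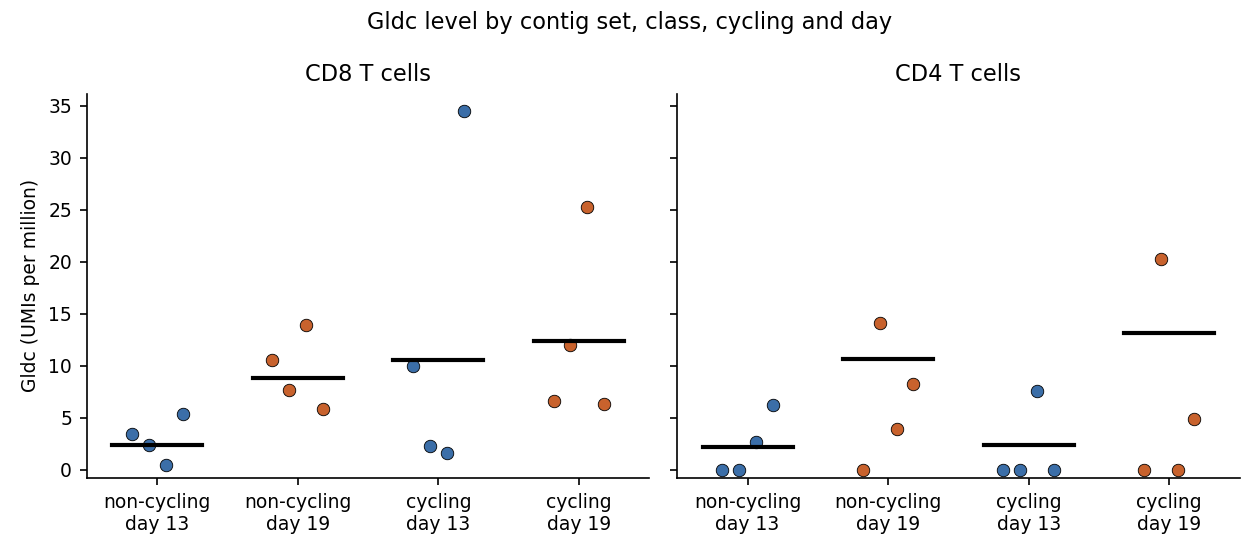
Gldc level (UMIs per 1000000) in the 4 contig sets of each day, for CD8 and CD4 T cells without and with a Mki67 UMI. Points are sets (blue day 13, orange day 19) and black lines are the sums over all cells of a group; in non-cycling CD8 cells the day-19 sets start at 5.85 and the day-13 sets end at 5.36.

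Gldc differed between the exhaustion-related states. States were called after each cell was thinned to 5000 UMIs, from Pdcd1 (PD-1, a receptor kept on after repeated antigen contact), Tcf7 (TCF-1, a factor of stem-like progenitor cells) and Havcr2 (TIM-3, a receptor of terminally exhausted cells). In non-cycling CD8 cells of day 13 Gldc was lowest without Pdcd1, at 0.168 CPM (2 UMIs in 1583 cells). It was 3.89 CPM (8 UMIs in 259 cells) in Pdcd1+ Tcf7+ Havcr2- cells, 5.54 (16 in 331) in Pdcd1+ Tcf7- Havcr2- cells and 17.7 (16 in 91) in Pdcd1+ Tcf7- Havcr2+ cells. Day 19 gave 1.95 CPM (11 UMIs in 662 cells), 0 UMIs in 57 cells, 13.4 CPM (32 in 234) and 28.5 CPM (47 in 147) in the same order. The 0 allows up to 6.25 CPM. At day 13 the intervals of the middle states overlapped and the others were apart from their neighbours. At day 19 the first 2 states overlapped and the others were apart. The 8 UMIs of the progenitor-like state at day 13 lay in 2 cells. Cycling Pdcd1+ Tcf7- Havcr2+ cells had 22.1 CPM on day 13 and 36.9 on day 19. Only 9 and 3 non-cycling cells had Tcf7 and Havcr2 together, with no Gldc UMI. Cycling cells of that kind were 2 at day 13, with 1 Gldc UMI (50.3 CPM, 1.27 to 281), and 1 at day 19, with none.

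Over both days the Pdcd1+ Tcf7- Havcr2+ cells had 108 Gldc UMIs (26.1 CPM) and the Pdcd1+ Tcf7+ Havcr2- cells 9 (2.52 CPM), a log2 ratio of 3.37 (2.40 to 4.54), with the first higher in 7 of 8 sets. In this comparison 4.25% of genes were 2-fold higher and 5.18% lower. Leaving out day-13 set 4 gave 2.96, leaving out day-13 set 1 gave 4.46, and the ratio was 2.53 (1.49 to 3.74) without the 3 clones described below. It was 2.97 (1.90 to 4.24) in non-cycling cells, 2.73 (1.60 to 4.05) at day 13 and, on 72 UMIs against 1, 4.80 (2.28 to 10.13) at day 19. As a share of cells after thinning, 9.77% (95% exact binomial interval 5.31 to 16.1) of the Pdcd1+ Tcf7- Havcr2+ cells of day 13 and 13.8% (9.24 to 19.6) of those of day 19 had a Gldc UMI, against 17.3% and 21.8% unthinned. Pdcd1- cells had 0.23% and 1.11% after thinning, and 0.403% and 2.22% unthinned at median depths of 6909 and 8031 UMIs. Of the 20 Gldc UMIs of Pdcd1- cells at day 13, 18 lay in 5 of 155 cycling cells (6.99 CPM, 4.14 to 11). The other 1583 had a Gldc UMI in 0.126% of cells, beside the 0.564% of the myeloid barcodes. The astrocyte list had 12.8 CPM in the Pdcd1+ Tcf7- Havcr2+ cells and 5.60 in the Pdcd1+ Tcf7+ Havcr2- cells. Without cells that had an astrocyte or glioma UMI the ratio was 3.36 (2.38 to 4.53). The choroid plexus list had 165 and 2.52 CPM in these states, the B and plasma cell list 34.6 and 133, and the oligodendrocyte list 186 and 310. Among non-cycling cells 6 of 7 tested cell cycle genes had intervals above 0 in the first state, as did 19.9% of all genes, with a median of 0.68 against 0.02 and Tk1 at 2.03. The part of these lists in the result was not tested.

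**Figure D2:**
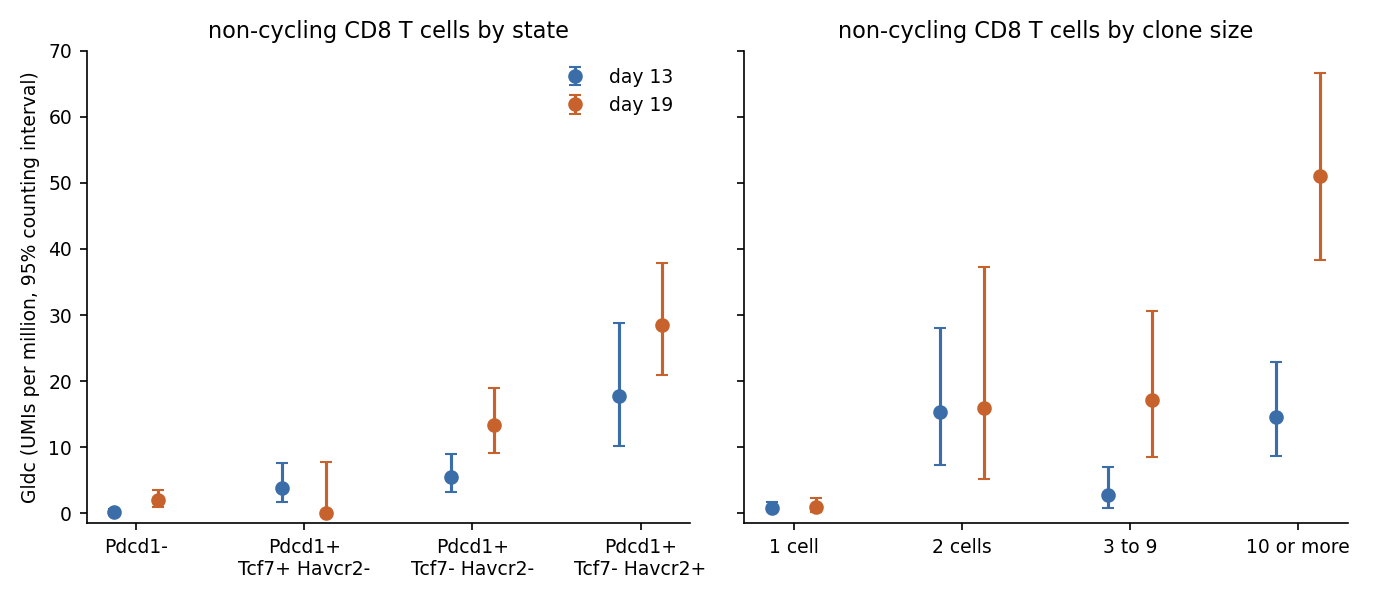
Gldc level (UMIs per 1000000) in non-cycling CD8 T cells by Pdcd1, Tcf7 and Havcr2 state (left) and by clone size (right), blue for day 13 and orange for day 19. Bars are exact 95% Poisson intervals; cells alone in their clone are at 0.851 and 0.882 on the 2 days, and clones of 10 or more cells at 14.5 and 51.1.

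Gldc also differed with clone size in CD8 cells. A clone is a group of cells of 1 set whose alpha and beta chains have identical nucleotides in the CDR3, the loop formed where gene segments join, among cells with exactly 1 TRA and 1 TRB contig. Identical receptor pairs also occurred in 2 or more sets of a day, 11 of 2171 at day 13 and 35 of 1066 at day 19. On both days 5 pairs occurred. A cell alone in its clone can thus share its receptor with cells of another set. Non-cycling cells alone in their clone had 0.851 CPM of Gldc at day 13 (8 UMIs in 1238 cells) and 0.882 at day 19 (4 in 529). Clones of 2 cells had 15.3 and 15.9 CPM, on 10 and 5 UMIs. Clones of 3 to 9 cells had 2.71 CPM (4 UMIs) and 17.1 (11), and clones of 10 or more had 14.5 (18) and 51.1 (54). The single cells had a log2 ratio between the days of 0.05, with a wide interval on so few UMIs (-2.13 to 1.95), and were under the free RNA level of the same day. Clones of 3 or more were at 8.10 and 38.2 CPM (log2 ratio 2.24, 1.52 to 3.01), with overlapping sets, where 2.16% of genes were 2-fold higher. Cycling and non-cycling cells together, clones of 3 or more had 192 UMIs (24.0 CPM) and single cells 22 (1.20 CPM), a log2 ratio of 4.32 (3.68 to 5.03), higher in 8 of 8 sets. Of all genes 4.63% were 2-fold higher and 4.45% lower here, and 8.59% were higher in every set. Non-cycling cells alone gave 4.52 (3.64 to 5.52), higher in 6 of 8 sets and lower in 1. Over cycling and non-cycling cells the groups also differed in state. A Pdcd1 UMI was in 85.7% of the cells in clones of 3 or more and in 27.3% of single cells. Tcf7 was seen in 17.6% and 73.1%, and Havcr2 in 44.5% and 5.86%. Clone size was not compared within a state. Clones also had more of the cell cycle genes: all 13 had intervals above 0, as did 33% of all genes, and 3 were 2-fold higher, the cyclins Ccnb1 (1.38) and Ccna2 (1.04) and the kinase Cdk1 (1.25). They had more of the astrocyte list, at 8.11 against 3.16 CPM. Without the cells with an astrocyte or glioma UMI the ratio was 4.69. The choroid plexus list had 105 and 46.0 CPM, the B and plasma cell list 61.4 and 123 and the oligodendrocyte list 247 and 265. Among non-cycling cells 6 of 10 tested cell cycle genes had intervals above 0 in the clones, as did 28.8% of all genes, with Birc5, a mitotic survival protein, at 1.64. The part of these lists was not tested. Leaving out day-13 set 4 gave 3.88, leaving out day-13 set 2 gave 4.95, and the ratio was 2.86 (2.12 to 3.65) without the 3 clones described next, an alternative chosen after seeing the data.

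A few clones held much of the Gldc. On day 13 a clone of 30 cells in set 4 had 62 UMIs in 21 cells, 91.0 CPM (69.8 to 117), and 66.7% of its cells cycled. On day 19 a clone of 57 cells in set 2 had 44 UMIs in 25 cells, 80.1 CPM (58.2 to 107), and a clone of 38 cells in set 3 had 32 UMIs in 16 cells, 54.5 CPM (37.3 to 76.9). These 3 clones were singled out after their values were seen. They made up 1.13% of CD8 cells and 56.9% of CD8 Gldc UMIs at day 13, and 6.62% and 46.9% at day 19. Other large clones of day 13 had little or none: 7 of 10 clones of 10 or more cells had no Gldc UMI. Another clone of 30 cells there had 4 UMIs, 9.07 CPM (2.47 to 23.2), and a clone of 27 cells had none, which allows up to 12.6 CPM. On day 19 all 5 CD8 clones of that size had at least 1, and those beside the 57-cell and 38-cell clones had 5 UMIs in 23 cells (19.5 CPM), 9 in 18 (33.9 CPM) and 1 in 10 (8.35 CPM).

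**Figure D3:**
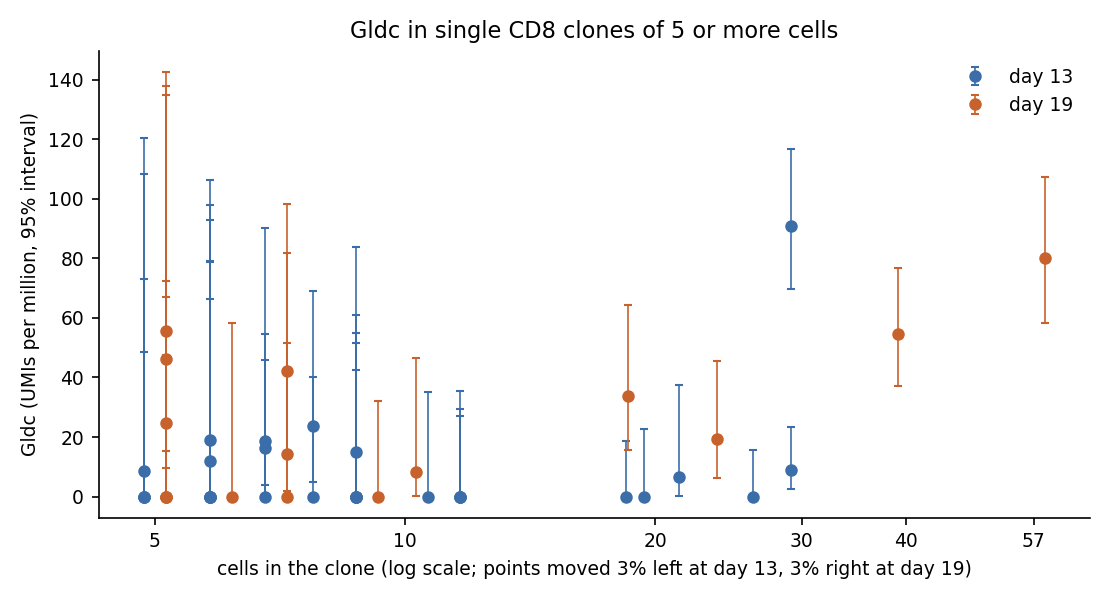
Gldc level (UMIs per 1000000) of each CD8 clone of 5 or more cells against its number of cells (log axis; points moved slightly by day), 30 clones at day 13 in blue and 16 at day 19 in orange, with exact 95% Poisson intervals. At day 13 20 of the 30 clones are at 0 and 1 clone of 30 cells is at 91.0, and at day 19 6 of 16 are at 0.

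The receptors of these clones are shown because 2 of the 3 were nearly alike across the days. The 30-cell clone of day 13 and the 38-cell and 23-cell clones of day 19 joined TRAV7D-2 to TRAJ7 in the alpha chain and TRBV16 to TRBJ2-7 in the beta chain. The 57-cell clone joined TRAV6D-5 to TRAJ27 and TRBV26 to TRBJ1-6. The sequences are CDR3 nucleotides from the deposited contigs, 5′ to 3′. Capitals mark bases that differ from the 30-cell clone, and the 57-cell clone, with other segments, is in lower case throughout.
Day 13, 30 cells, TRA: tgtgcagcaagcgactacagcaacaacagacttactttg
Day 19, 38 cells, TRA: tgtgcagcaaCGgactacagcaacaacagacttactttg
Day 19, 23 cells, TRA: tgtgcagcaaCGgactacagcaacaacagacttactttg
Day 19, 57 cells, TRA: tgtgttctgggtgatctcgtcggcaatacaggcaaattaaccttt
Day 13, 30 cells, TRB: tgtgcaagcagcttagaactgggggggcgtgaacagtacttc
Day 19, 38 cells, TRB: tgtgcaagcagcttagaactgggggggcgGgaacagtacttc
Day 19, 23 cells, TRB: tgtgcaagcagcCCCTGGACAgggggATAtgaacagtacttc
Day 19, 57 cells, TRB: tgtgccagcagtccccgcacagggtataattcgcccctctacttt
The alpha chain of the 38-cell clone differed from that of the 30-cell clone by 2 bases and its beta chain by 1. All cells with these 4 segments were 34 at day 13, with 66 Gldc UMIs (87.5 CPM), and 62 at day 19, with 38 (44.3 CPM), and all of them were CD8 cells. The 57-cell clone shows that a high Gldc level was also found with another receptor.

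Among large clones, those 3 were set against the other CD8 clones of 10 or more cells, 125 against 216 cells, in a comparison added after the clones had been seen. The groups differ in day and in cycling: 95 of the 125 cells and 51 of the 216 were of day 19, and 52 and 51 cycled. Pdcd1 was at 551 and 546 CPM, a log2 ratio of 0.01 (-0.11 to 0.14). Tcf7 was lower (3.30 against 35.6 CPM, -3.43) and Havcr2 higher (165 against 68.6 CPM, 1.27) in the 3 clones. Of the other 7 genes, Mthfd1, the cytosolic enzyme with 3 activities on folate, was at 35.2 against 16.1 CPM, a log2 ratio of 1.13 (0.52 to 1.76). It alone of the 7 was counted as 2-fold higher, where 1.72% of genes were higher and 3.68% lower. Shmt1, the cytosolic serine hydroxymethyltransferase, was at 15.4 against 7.39 CPM, 1.06 (0.14 to 2.02), with under 50 UMIs, and Shmt2, its mitochondrial counterpart, at 88.0 against 48.2 CPM, 0.87 (0.51 to 1.23). Phgdh, Psat1 and Psph, the 3 steps of serine synthesis in their order, had ratios of 0.56, 0.60 and 0.45 with intervals above 0, as 15.6% of all genes had. Split by cycling, Psph had intervals across 0 in both kinds of cell, Phgdh in non-cycling cells (0.32) and Psat1 in cycling cells (0.29). Mthfd2, the mitochondrial dehydrogenase, had 0.23 (-0.11 to 0.56). In the cycling cells of these clones Shmt1 and Mthfd1 had intervals across 0, at 0.17 and 0.28, and in the non-cycling cells they were at 2.03 (0.39 to 3.91) and 1.95 (0.98 to 2.98). Within a day the result was not the same. At day 13, with 30 against 165 cells, Shmt1 was at 2.15, Mthfd1 at 1.83 (1.04 to 2.64), Shmt2 at 1.43, Psat1 at 1.15 and Phgdh at 1.00. These and Mthfd2 had intervals above 0, as did 21.8% of all genes tested, and Shmt1 held under 50 UMIs. At day 19, with 95 against 51 cells, all 7 had intervals across 0, with Mthfd1 at 0.33 (-0.66 to 1.40) and Shmt1 at -0.41 (-2.13 to 1.40), where 10.9% of all genes had intervals above 0 and 5.27% below. Havcr2 was higher on both days (1.46 and 0.73), while Tcf7 was lower at day 13, with 0 against 81 UMIs, and had 6 against 1 UMIs at day 19. The 3 clones were not alike in these genes. The 30-cell clone of day 13 had Mthfd1 at 51.4 CPM, Shmt1 at 29.4, Phgdh at 279, Psat1 at 131 and Shmt2 at 123. The 38-cell clone had Mthfd1 at 34.1, Shmt1 at 10.2, Phgdh at 199 and Psat1 at 66.4 CPM. The 57-cell clone had Mthfd1 at 16.4, Shmt1 at 3.64, Phgdh at 98.3, Psat1 at 58.2 and Shmt2 at 61.9 CPM. Beside the other large clones, whose sums were 16.1, 7.39, 135, 58.2 and 48.2 in the same order, the 57-cell clone was near or below them for the first 4 genes.

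CD4 T cells had less data. Gldc was at 0, 0, 3.64 and 5.29 CPM in the sets of day 13 and at 0, 16.0, 2.81 and 7.22 in those of day 19. The sets overlapped, and 36 of the 43 UMIs of day 19 lay in set 2. CD4 cells per set ran from 86 to 158 at day 13 and from 12 to 220 at day 19. A level of 0 in a small set is therefore not evidence of absence. The sums of 10 UMIs (2.24 CPM) and 43 UMIs (11.4 CPM) gave a log2 ratio of 2.35 (1.34 to 3.51), where 1.91% of genes were 2-fold higher and 3.08% lower. It was 1.05 (-0.58 to 2.59) without day-19 set 2 and 3.01 without day-13 set 4. Non-cycling CD4 cells with Pdcd1 but neither Tcf7 nor Havcr2 held 16 of the 28 non-cycling UMIs of day 19. Clones of 3 or more CD4 cells had 3 UMIs in 61 cells (4.45 CPM) and single CD4 cells 13 in 473, a log2 ratio of 0.57 (-1.88 to 2.44). This interval lay below that of the CD8 clone ratio (3.68 to 5.03), and the difference between the classes was not tested. CD4 clones of 2 cells had 5 UMIs in 29 cells at day 13 (20.5 CPM, 6.66 to 47.9) and 13 in 53 at day 19 (25.4 CPM, 13.5 to 43.4), and single CD4 cells had 4 in 290 and 9 in 183. Non-cycling CD8 and CD4 cells had similar Gldc levels, with log2 ratios of CD8 over CD4 of 0.10 (-1.01 to 1.40) and -0.27 (-0.90 to 0.40).

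Cycling set the other 7 genes apart most plainly. In CD8 cells of both days, Psat1 had 103 CPM with a Mki67 UMI and 35.2 without, a log2 ratio of 1.55 (1.42 to 1.67). Shmt1 had 25.8 and 9.10 CPM, 1.50 (1.26 to 1.75), and Mthfd2 107 and 49.9 CPM, 1.10 (0.99 to 1.21). Phgdh (232 and 118 CPM, 0.98), Mthfd1 (0.89), Psph (0.71) and Shmt2 (0.67) were below 2-fold with intervals above 0. With Gldc at 1.27 (0.92 to 1.63), 4 of the 8 genes were 2-fold higher and none lower, where 7.2% of all genes were higher and 4.25% lower. The Gldc ratio was 2.16 (1.58 to 2.75) at day 13 and 0.48 (0.02 to 0.95) at day 19, and 0.84 (0.42 to 1.25), under 2-fold, without day-13 set 4. The median of the 7 was 0.98, against 0.04 for all genes tested. Among the 7, all but Shmt2 were higher in cycling cells in 8 of 8 sets, as were 18.9% of all genes, and Shmt2 was in 7. Gldc was higher in 6. The medians of the 7 were 1.30, 1.13, 1.12 and 1.05 in the day-13 sets and 0.71, 1.01, 0.64 and 0.70 in the day-19 sets, so every late set was below every early one. Without the 8% deepest cells the median was 0.71. In CD4 cells all of the 7 also had intervals above 0, as did 17.6% of all genes, with a median of 0.95. Phgdh was at 181 against 74.2 CPM (1.29, 1.08 to 1.49), higher in 8 of 8 sets as were 2.83% of genes. Shmt1 was at 1.03 (0.14 to 1.89) on 51 UMIs, higher in 4 sets and lower in 3. These 2 of the 8 members were 2-fold higher, where 4.56% of genes were 2-fold higher and 1.77% lower.

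For Psat1 that gap narrowed from both sides, with a cycling ratio of 1.82 at day 13 and 1.17 at day 19. The ratio of Shmt1 went from 1.77 to 1.13. In cycling cells Psat1 went from 113, 110, 124 and 111 CPM in the sets of day 13 to 84.3, 85.9, 80.3 and 107 at day 19. No late set reached an early one, as in 8.07% of genes, and the log2 ratio was -0.35 (-0.52 to -0.19). Non-cycling cells went the other way, from 27.6, 29.1, 35.2 and 37.2 CPM to 46.1, 38.7, 40.7 and 39.4, a log2 ratio of 0.29 (0.11 to 0.48) with the sets again apart. Over all CD8 cells these sum to 54.1 and 57.9 CPM, a log2 ratio of 0.10 (-0.02 to 0.22). Barcodes with free RNA had Psat1 at 26.5 CPM at day 13 and 48.6 at day 19, and their part was not tested. Mthfd2 (-0.27), Psph (-0.22) and Phgdh (-0.14) were also lower at day 19 in cycling cells, with overlapping sets. Shmt1 went the other way there, at 0.36 (0.03 to 0.69), and Mthfd1 (0.23) and Shmt2 (0.04) had intervals across 0. So 4 of the 7 had intervals below 0 and 1 above, against 22.3% and 12.5% of all genes.

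The 2 cytosolic folate enzymes were higher at day 19. Shmt1 in non-cycling CD8 cells had 6.32, 5.42, 6.72 and 9.46 CPM in the sets of day 13 and 17.1, 10.4, 12.5 and 21.3 in those of day 19. All late sets were above all early ones, and the sums of 6.68 and 13.3 CPM gave a log2 ratio of 1.00 (0.63 to 1.36), which before rounding was just under 2-fold. Mthfd1 had 17.2, 11.7, 20.8 and 21.1 CPM and then 31.6, 30.3, 30.7 and 26.1, a log2 ratio of 0.79 (0.56 to 1.03) with the sets apart. Cells without Pdcd1 showed both differences, Shmt1 at 6.91 and 15.6 CPM (1.17, 0.72 to 1.63) and Mthfd1 at 19.7 and 34.9 CPM (0.82, 0.54 to 1.10). Among the members tested there Shmt1 alone was 2-fold higher, where 0.81% of genes were. Gldc, on 2 and 11 UMIs, was too thinly counted to be tested (3.53, 1.33 to 6.75). Every late set was higher for it, as in 4.88% of genes tested. In non-cycling Pdcd1+ Tcf7- Havcr2+ cells Shmt1 had 9 and 10 UMIs, 9.98 and 6.06 CPM (-0.72, -2.17 to 0.76). With Gldc and Psat1, 4 of the 8 genes had all late sets higher in non-cycling CD8 cells, beside the 7.55% of all genes given above, and Gldc alone was 2-fold higher. Barcodes with free RNA differed in the same direction, from 5.80 to 11.4 CPM for Shmt1 and from 9.07 to 25.5 for Mthfd1. The part of free RNA in these differences was not tested.

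The other 4 genes had ratios from -0.11 to 0.22 between the days in non-cycling CD8 cells. Shmt2 had 61.7 and 72.0 CPM (0.22), Phgdh 115 and 123 (0.09), Psph 42.3 and 43.7 (0.05) and Mthfd2 51.3 and 47.5 (-0.11), all with overlapping sets. CD4 cells had Shmt2 at 32.2 and 47.5 CPM (0.56), Phgdh at 84.3 and 118 (0.49) and Mthfd1 at 11.4 and 19.4 (0.77) over cycling and non-cycling cells. Mthfd2 was the one member that was lower there, at 93.4 and 74.0 CPM, a log2 ratio of -0.34 (-0.56 to -0.11). The CD4 sets overlapped for all 8 genes. Cycling cells were 13.0% of CD4 cells at day 13 and 21.8% at day 19. Of 13 cell cycle genes 12 had intervals above 0 over all CD4 cells, as did 18.9% of all genes. In non-cycling CD4 cells 3 of 6 tested members had intervals above 0 and 1 below, against 15.5% and 14% of all genes. The part of cycling in these ratios was not tested.

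**Figure D4:**
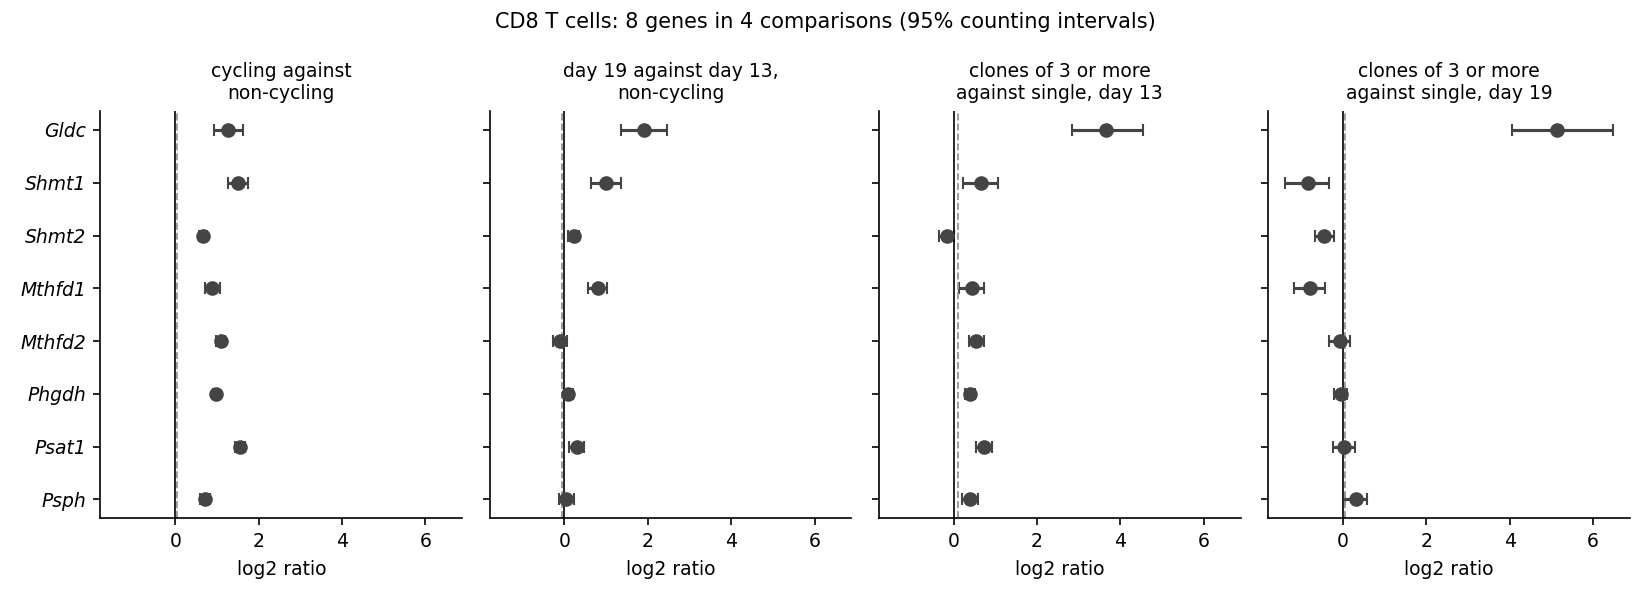
Log2 ratios of the 8 genes in CD8 T cells for cycling against non-cycling cells, day 19 against day 13 in non-cycling cells, and clones of 3 or more cells against single cells on each day, with exact 95% counting intervals. The dashed line is the median of all genes tested; Gldc is at 3.65 and 5.14 in the clone panels, where Shmt1 goes from 0.65 to -0.85.

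Clone size and the other 7 genes met differently on the 2 days. In clones of 3 or more CD8 cells against single cells at day 13, 6 of the 7 had intervals above 0, from 0.39 for Phgdh and Psph to 0.73 for Psat1, with Shmt2 at -0.16 (-0.35 to 0.02), where 31.8% of all genes had such intervals. At day 19 only Psph did, at 0.32 (0.04 to 0.59), where 23.7% of genes did, and Shmt1 (-0.85, -1.40 to -0.32), Mthfd1 (-0.80, -1.18 to -0.43) and Shmt2 (-0.44, -0.67 to -0.22) were lower in the clones, as were 17.8% of genes by their intervals. None of the 7 was 2-fold either way on either day, where 4.15% and 5.01% of genes were 2-fold higher and 3.75% and 4.94% lower. Shmt1 was higher in the clones in all 4 sets of day 13 and lower in all 4 of day 19, as were 24.6% and 15.4% of all genes. In non-cycling cells alone it was lower in the clones on both days, at 4.78 against 8.19 CPM and 9.41 against 16.5 CPM, on 13 and 16 UMIs in the clones and with 3 of 8 sets the other way. Non-cycling clones of both days had less Shmt2, at 41.4 against 71.5 CPM, a log2 ratio of -0.79 (-1.02 to -0.56) that was negative in 7 of 8 sets. They had more Psat1, at 44.1 against 33.5 CPM, 0.40 (0.15 to 0.64). Of the 7 genes 2 had intervals above 0 and 3 below in non-cycling clones, against 28.8% and 16.2% of all genes.

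States gave a like contrast between the days. Between Pdcd1+ Tcf7- Havcr2+ and Pdcd1+ Tcf7+ Havcr2- CD8 cells of day 13, Shmt1 (27.7 against 5.99 CPM, 2.21), Mthfd1 (41.5 against 13.1 CPM, 1.66), Psat1 (86.3 against 40.1 CPM, 1.11) and Shmt2 (71.4 against 34.8 CPM, 1.03) were 2-fold higher. That is 4 of the 7 tested members, where 5.79% of genes were higher and 4.36% lower. Gldc, at the 2.73 given above, held under 50 UMIs there and was not tested. At day 19 the same comparison gave -1.37 (-2.46 to -0.27) for Shmt1, -0.74 (-1.12 to -0.35) for Shmt2 and -0.51 (-0.96 to -0.06) for Mthfd2, with only 80 cells in the second state. Gldc was 2-fold higher there and Shmt1 was too thinly counted to be tested, where 4.85% of genes were higher and 3.68% lower. Summed over both days the state ratios of Mthfd1 (0.86) and Shmt2 (0.34) depended on the cells kept. They were -0.049 and -0.66 in cells with at least 8000 UMIs, and -0.071 and -0.43 with no limit on the macrophage genes. The share of cycling cells moved with the states: 31.6% and 15.4% of these states cycled at day 13, and 21.8% and 28.75% at day 19. Among non-cycling cells of both days Mthfd1 was at 23.5 against 10.3 CPM (1.20, 0.51 to 1.92) and Psat1 at 49.0 against 24.5 CPM (1.00, 0.55 to 1.47). Day 19 gave 147 of the 238 cells of the first state and 57 of the 316 of the second. By day Mthfd1 was at 20 against 8.76 CPM (18 UMIs each) at day 13 and at 25.5 against 16.7 (42 and 8 UMIs) at day 19. Psat1 was at 52.1 against 20.9 CPM and at 47.3 against 39.6. These 2 and Gldc were the 3 of 7 tested members that were 2-fold higher, where 4.76% of genes were higher and 5.44% lower. The cell cycle genes named above, with Mcm3 at 1.07, went the same way there, and their part was not tested. Cells without Pdcd1 did not sit below the progenitor-like state: compared with Pdcd1+ Tcf7+ Havcr2- cells they had more Mthfd1 (24.6 against 10.3 CPM, 1.26), Shmt1 (9.70 against 4.34 CPM, 1.16) and Shmt2 (76.5 against 37.1 CPM, 1.04), where 1.95% of genes were 2-fold higher and 1.52% lower, and less Gldc in the sum (0.742 against 3.16 CPM), though not in 6 of 8 sets.

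**Figure D5:**
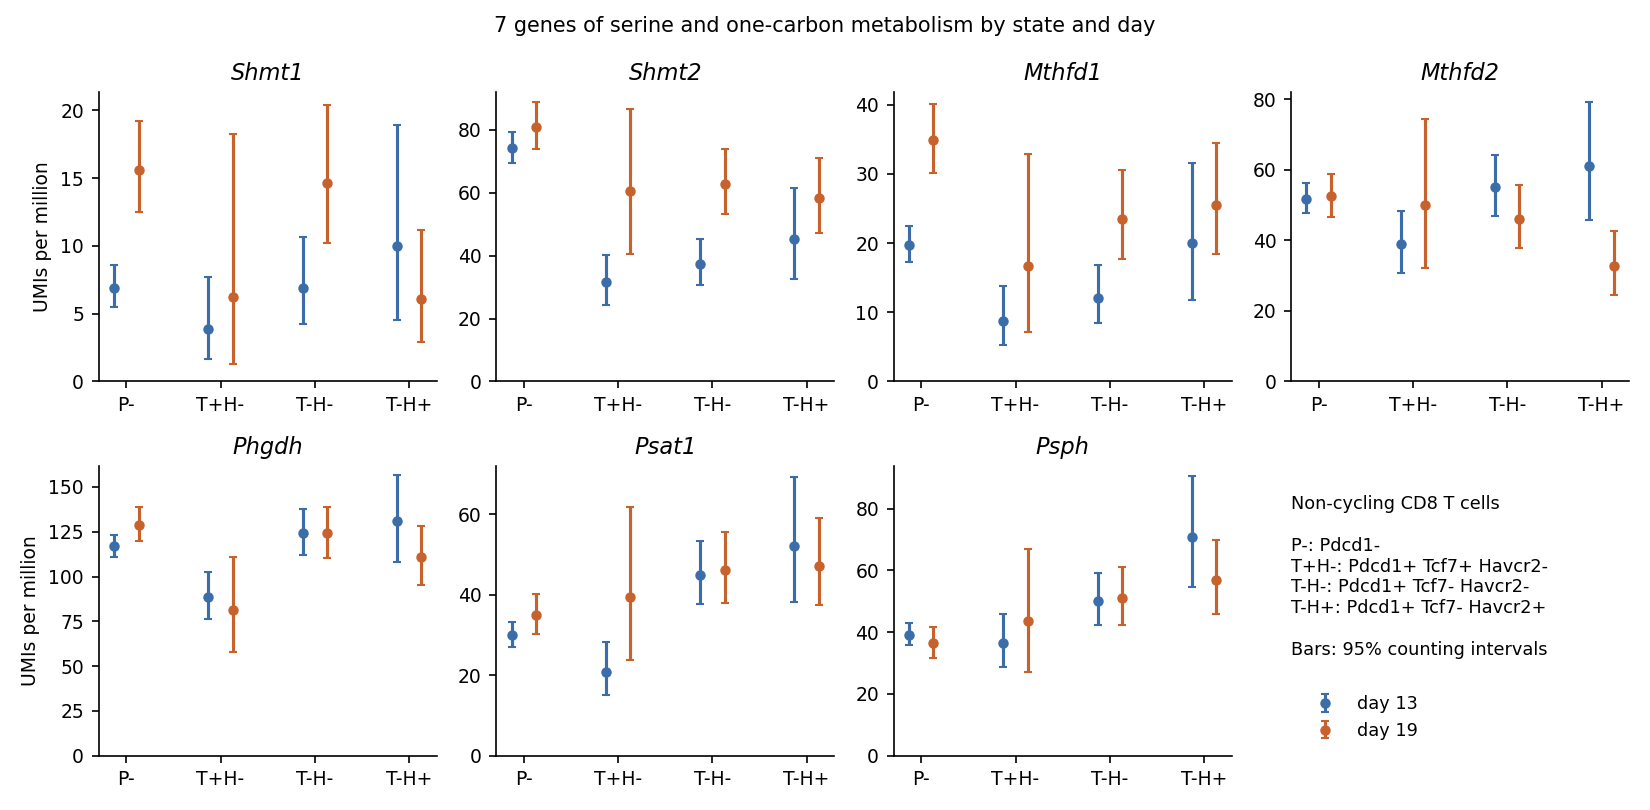
Levels (UMIs per 1000000) of the 7 genes other than Gldc in non-cycling CD8 T cells by state, blue for day 13 and orange for day 19, each axis from 0, with exact 95% Poisson intervals. Mthfd2 in the Pdcd1+ Tcf7- Havcr2+ state is at 61.0 on day 13 and 32.7 on day 19, and Shmt2 at day 13 is highest in Pdcd1- cells at 74.4.

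The mitochondrial pair differed in opposite directions between CD8 and CD4 cells. In non-cycling cells of day 13, Shmt2 had 61.7 CPM in CD8 and 30.3 in CD4 cells, a log2 ratio of 1.03 (0.74 to 1.32), higher in 4 of 4 sets as were 13.2% of genes. Mthfd2 was lower in CD8 cells, at 51.3 against 86.4 CPM, -0.75 (-0.94 to -0.56), in 3 of 4 sets. Day 19 gave 0.71 (0.42 to 1.00) and -0.50 (-0.75 to -0.24). Phgdh was higher in CD8 cells, at 0.81 and 0.51, and Psat1 differed by 0.08 and 0.07 with intervals across 0. One member of 8 was 2-fold higher in CD8 cells on each day, Shmt2 at day 13 and Shmt1 (1.23, 0.45 to 2.10) at day 19, where 2.87% and 3.27% of genes were higher and 7.57% and 7.54% lower.

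The other genes of the pathway came from lists that were written with earlier results known. The partners of Gldc in glycine cleavage come first. Amt, the aminomethyltransferase, had 0 UMIs in CD8 cells at day 13 and 1 at day 19, too few to compare. Gcsh, the lipoate carrier of the complex, had 11.6 and 19.9 CPM on the 2 days (0.78, 0.54 to 1.02), but 15.1 CPM in clones of 3 or more and 14.4 in single cells. Dld, the dehydrogenase that other mitochondrial complexes also use, had -0.13 between the days and 0.14 between clones and single cells, both with intervals across 0. Of 11 purine synthesis genes 9 had intervals above 0 at day 19 in CD8 cells, as did 22.3% of all genes, with a median of 0.26 against -0.04 over all genes, and 1, Adssl1, was 2-fold higher (1.25). Of 15 tested genes of the ATF4 list, the stress response that also drives serine synthesis genes, 2 were 2-fold lower at day 19, Trib3 (-1.18) and Nupr1 (-1.74), and none higher, where 2.93% of genes were 2-fold lower and 2.19% higher.

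In clones of 3 or more against single CD8 cells, the ATF4 targets Asns, asparagine synthetase (27.0 against 7.52 CPM, 1.84), and Pck2, the mitochondrial PEP carboxykinase (25.6 against 12.5 CPM, 1.03), were 2-fold higher. They were 2 of 15 tested genes of the ATF4 list, where 4.63% of all genes were 2-fold higher. Of the 15, 6 had intervals above 0 and 1 below, against 33% and 18.4% of all genes. So was Adssl1, an adenylosuccinate synthase of purine synthesis (1.08). Asns was higher in 8 of 8 sets, as were 8.59% of genes. Izumo1r, the folate receptor 4 that regulatory T cells carry, was lower in the clones (5.74 against 18.3 CPM, -1.67) in 8 of 8 sets, as were 6.19% of genes. In non-cycling cells alone Asns was at 12.9 against 5.52 CPM (1.22), higher in 6 of 8 sets, Izumo1r was at -1.16, lower in 6 of 8, and Pck2 and Adssl1 were not 2-fold. There Impdh2, the dehydrogenase that commits purines to guanine nucleotides, was lower in the clones, at 83.5 against 188 CPM (-1.17, -1.33 to -1.01), in 8 of 8 sets as were 5.07% of genes. Of the 11 purine synthesis genes 5 had intervals below 0 and 2 above, against 16.2% and 28.8% of all genes, with a median of -0.23. Ggh, which trims the glutamate tail of folates, was 2-fold higher (1.03), in 8 of 8 sets as were 6.94% of genes. Fpgs, which adds it, was 2-fold lower (-1.05), where 4.76% of genes were higher and 4.48% lower. Between the 2 exhaustion-related states Asns was at 2.18, Pck2 at 1.21, Adssl1 at 1.06 and Izumo1r at -1.57. Asns was higher there in 8 of 8 sets, as were 4.82% of genes. In cycling CD8 cells Tyms, thymidylate synthase, was 2-fold higher (193 against 19.6 CPM, 3.31). All 11 purine synthesis genes had intervals above 0 there, as did 35.2% of all genes, with a median of 0.61, and 2 of the 11, Ppat (1.04) and Pfas (1.30), were 2-fold higher, where 7.2% of all genes were. Gcat, which makes glycine from threonine breakdown, was at 2.59, Asns at 1.98, Pck2 at 1.70 and Ahcy, which hydrolyses S-adenosylhomocysteine, at 1.60.

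Within 1 kind of cell, non-cycling CD8 cells with Pdcd1 and without Tcf7, the 73 cells with a Gldc UMI were set against the 730 without, in a comparison added after the data were seen. Mthfd1 was at 41.0 against 16.5 CPM (1.32, 0.74 to 1.86) and Shmt1 at 17.7 against 8.38 CPM (1.08, 0.18 to 1.90), so 2 of the other 7 genes were 2-fold higher, where 1.72% of genes were higher and 4.81% lower. Mthfd1 was higher in 5 of 7 sets and Shmt1 in 4, with 3 lower. The cell cycle list went with the Gldc UMI although Mki67 was absent: 8 of 10 tested genes had intervals above 0, as did 11.4% of all genes, with a median of 0.54, and Rrm2, a subunit of ribonucleotide reductase, was at 1.59. Its part in the result was not tested. Psat1 (0.68) and Phgdh (0.36) had intervals above 0, and Shmt2, Mthfd2 and Psph did not. A Gldc UMI is more often seen in a deep cell, depth was not matched, and cells of the 3 clones above are among the 73.

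Surface protein was also measured in these cells. Its tags regroup the Gldc counts by which the gene was chosen, so these values are a description. CD8 cells with at least 100 antibody-tag UMIs were ranked by the share of 1 tag, and the top and bottom 25% compared, again an addition. By CD39, an ectonucleotidase of exhausted cells, Gldc was at 8.81 against 1.93 CPM at day 13, a log2 ratio of 2.19 (1.25 to 3.27), and at 21.4 against 1.93 CPM at day 19, 3.47 (2.37 to 4.82), where 1.55% and 3.82% of genes were 2-fold higher. In non-cycling cells the ratios were 1.53 (0.22 to 3.02) and 4.67 (2.74 to 7.75). By CD62L, the homing receptor of naive and memory cells, the top 25% had 0 Gldc UMIs and the bottom 25% 61 at day 13. With 3 counts put in place of the 0, this is a log2 difference of at least 3.9. At day 19 it had 1 and 58 UMIs, -5.62 (-10.95 to -3.08). Of all genes 9.14% and 6.65% were 2-fold lower in the top 25% by CD62L. Non-cycling cells had 0 against 21 and 0 against 31 UMIs. By PD-1 the difference was 1.76 (0.91 to 2.7) at day 13 and 0.51 (-0.08 to 1.12) at day 19, and in non-cycling cells 1.02 (-0.51 to 2.72) and 1.05 (0.21 to 1.95). TIM-3 protein gave 0.62 (-0.21 to 1.49) and 0.68 (0.03 to 1.34), and in non-cycling cells 0.83 and 0.41 with intervals across 0, and LAG-3 protein had intervals across 0 on both days. Among the other genes CD62L went with lower Shmt1 (-1.29), Psat1 (-0.91) and Mthfd2 (-0.90) at day 13, and with higher Mthfd1 (0.75), Shmt1 (0.73) and Shmt2 (0.67) at day 19. In non-cycling cells Shmt1 had intervals across 0 on both days (-0.55 and 0.52), and Shmt2 was higher on both (0.57 and 0.47). Cycling cells were 4.08% of the top and 21.3% of the bottom 25% by CD62L at day 13, and 13.1% and 27.3% at day 19.

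The genes most like Gldc were sought over 15 sums of non-cycling cells by class, day and state with at least 20 cells, among 9202 genes. Camk2n1 (Pearson r of log2 CPM 0.94), Uqcc2 (0.92), Ybx3 (0.92), Arl14ep (0.91), Rgs16 (0.90), Ubash3b (0.90), Higd1a (0.89) and Ndufa1 (0.89) came first. The sums share captures and the highest sums are Pdcd1+ Tcf7- cells, so this is a description over few points. Psph and Psat1 had 0.60, Phgdh 0.47, Mthfd1 0.28, Shmt1 0.11 and Shmt2 0.02, and Mthfd2 had -0.27. For Mthfd2 the nearest were Vps26a (0.89), Rap2b (0.88) and Zfand5 (0.87), and its correlation with Shmt2 was -0.60.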

How the data were processed

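The deposited matrices hold raw UMI counts of every barcode (Cell Ranger 4, per the file headers), with 32285 genes, 138 antibody tags and 4 multiplexing tags. The submitters' processing notes list Cell Ranger 4.0.0, STAR 2.7.5c, bcl2fastq 2.20, Seurat, R 4.1.2 and mm10. The deposited TCR tables give contigs with UMI counts. The matrices held 144565182 and 81224453 gene UMIs.

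From these, counts were summed over cells with Python 3.11.15, numpy 2.4.6, scipy 1.17.1 and pandas 2.3.3, and CPM ratios were given exact 95% Poisson intervals. A sum of 0 was replaced by 3 counts to bound a ratio, and pairs of sums of 3 or fewer were left without one. The limit on C1qa, Lyz2 and Csf1r removed 18.5% of deep contig barcodes at day 13 and 32.8% at day 19. No doublet caller was run; a fit without the 8% deepest cells stands in for one. On simulated counts of 10979 genes for CD8 day 19 against day 13, 95.5% of intervals held the true ratio. Of 200 changed genes 197 had intervals off 0 on the right side. The counts were drawn as Poisson sums with no variation between cells, clones or sets. A share near 95% was therefore fixed in advance. How the intervals hold for clumped counts such as those of Gldc was not tested.

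The 8 genes and all lists were chosen with earlier results of these data known. Named were the 8 genes, list genes 2-fold or more with at most 8 per comparison, and the 8 genes most like Gldc and Mthfd2, of which 3 are named for Mthfd2. Some list genes past 2-fold are not reported here.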

Additional observations from a re-analysis of the deposited data

Results flagged for a closer look

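Gldc UMIs also lay in contig barcodes that the limit on macrophage genes had left out: 19 UMIs in 11 barcodes at day 13 (1.71 CPM) and 158 in 75 barcodes at day 19 (9.73 CPM). These droplets are outside every comparison above. With no such limit the CD8 day ratio of Gldc was 1.28 (0.95 to 1.62), a choice made after seeing the data.

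Shmt1 stood out because every set of day 13 had more of it in clones of 3 or more CD8 cells than in single cells (log2 ratio 0.65) and every set of day 19 had less (-0.85). The difference between the days was not tested, and sets are not replicates.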

How the results depend on the processing

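Of 108 alternative values for the 4 Gldc ratios and the median of the other 7 genes, 92 stayed, 16 moved and none changed sign. A Gldc value stayed if it lay in the counting interval of the main ratio. The median stayed if it lay within 0.24 of the main value, the SD over the 8 sets. Neither limit measures the spread between animals. The CD8 day ratio of Gldc (1.16) ran from 0.66 without day-13 set 3 to 2.23 without day-13 set 4 when each set was left out. It was 1.88 in cells thinned to 5000 UMIs, 2.55 without the 8% deepest cells and 1.90 without cycling cells. Without the largest clones of each day it was 2.03. This left out both 30-cell clones of day 13 and the 57-cell clone of day 19. The ratio was 1.53 without the 3 clones with most Gldc UMIs (chosen after seeing the data). It was 0.58 in cells with at least 8000 UMIs and 0.78 in those with no UMI of C1qa, Lyz2 or Csf1r. The CD4 day ratio ran from 1.05 without day-19 set 2 to 3.01 without day-13 set 4. The clone ratio ran from 3.88 to 4.95 over sets left out, and was 3.43 without the largest clones, 2.86 without the 3 clones and 3.59 with at least 8000 UMIs. The state ratio ran from 2.96 to 4.46, and was 5.91 (3.37 to 11.24) in thinned cells, 4.70 with states from the deposited counts and 2.53 without the 3 clones. The cycling median of 7 ran from 0.95 to 1.07, and was 0.71 without the 8% deepest cells. The cause of these shifts was not tested.

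Among 786 alternatives for single genes, judged by their counting intervals, 681 stayed, 94 moved and 11 changed sign. Sign changes were counted only where the main interval lay off 0. Shmt1 between clones and single cells, with a main interval across 0 (-0.32 to 0.32), went from 0.0045 to -0.73 without cycling cells. Phgdh between days in CD8 cells ran from -0.029 without day-13 set 2 to 0.26 without day-19 set 2, and was -0.10 with at least 8000 UMIs. Phgdh between clones and single cells became -0.0090 without the deepest cells and -0.0078 without cycling cells. Psat1 between days in CD4 cells ran from -0.042 without day-19 set 2 to 0.53 without day-19 set 3. Shmt2 between states became -0.12 with states from the deposited counts, -0.66 with at least 8000 UMIs, -0.040 with no macrophage UMI and -0.43 with no limit on them. Mthfd1 between states became -0.049 with at least 8000 UMIs and -0.071 with no limit.

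No pairing between the days was possible because each day is 1 capture. Clone, state and cycling ratios were counted by direction within sets, and no paired test was run. For Gldc, a CD8 sum of 3 UMIs is 0.124 CPM at day 13 and 0.187 at day 19, but 6.25 CPM in the 57 Pdcd1+ Tcf7+ Havcr2- cells of day 19 that did not cycle.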
